A study of Mus musculus with 2 samples.

Results

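Germline and meiosis genes were examined in mouse ZHBTc4 embryonic stem (ES) cells, as all probes that the array files name Stra8, Hormad1, Sycp1, Sycp3, Dazl, Ddx4, Mael, Tdrd1, Prdm1 or Nanos3. These 10 genes had 12 of the 39429 probes, with 2 probes each for Hormad1 and Sycp3. ZHBTc4 cells have no intact endogenous Oct4 allele and live on an Oct4 transgene that doxycycline switches off. On the EGFP array, Nr5a2-EGFP clone 26 was labelled with Cy5 and EGFP clone 2-5 with Cy3. On the Oct4 array, Nr5a2-EGFP clone 26 was again in Cy5 and Oct4-EGFP clone 9 was in Cy3. All clones were treated with doxycycline before harvest, carried their transgene in the pCAG-IP vector, and grew without feeder cells in 15% serum with 1000 IU/ml of LIF. For how long and at what dose doxycycline was given is not stated in the labels. The EGFP clone thus had lost the regulated Oct4 with only a marker protein in its place, the Oct4-EGFP clone had Oct4 put back, and the Nr5a2-EGFP clone had the nuclear receptor Nr5a2 instead.

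Germ cells are set aside early in the mouse embryo, when Prdm1 and its partners turn on the primordial germ cell programme and Nanos3 keeps these cells alive. In the gonad, Dazl licenses them to become gametes, and retinoic acid induces Stra8, which starts meiosis. Meiotic chromosomes are then built on axes of Hormad1 and Sycp3 that Sycp1 zips together, while Ddx4, Mael and Tdrd1 work in germ granules, where piRNAs that silence transposons are made. Most of these genes are shut in somatic cells by promoter DNA methylation and, in ES cells, also by a complex that holds Max, Mga, E2f6 and Pcgf6. ES cells transcribe some of them nonetheless.

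Each direct comparison rests on 1 array, without replicate or dye swap, and Oct4-EGFP and EGFP were never on the same array. No test was therefore possible and the ratios between clones carry no error between cultures. Each transgene is represented by 1 clone, so the transgene and other differences between clones cannot be told apart. Genes were described by size: a log2 ratio of at least 1, which is 2-fold. A repeat exists for the Nr5a2-EGFP clone alone, in Cy5 on the second array. Across 25506 genes its second reading minus its first had an SD of 0.30 on the log2 scale, and 1.72% of genes were 2-fold or more apart. For the probes of the measured genes the difference lay between -0.29 and 0.37. Between 78.1% and 80.1% of the spots in each of the 4 channels were well above background. The Pou5f1 (Oct4) probe read 104 and 28.8 in the Nr5a2-EGFP clone, 118 in the EGFP clone and 116 in the Oct4-EGFP clone, and whether the transgene's transcript holds its target is not given in the labels, so it does not check them. The arrays measured bulk RNA, in which fewer cells of a type and less RNA per cell cannot be told apart.

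Of the 10 genes, 9 were well above background in all 4 channels, and Tdrd1 in none. Apart from Prdm1, they fell into 3 kinds. Stra8, Sycp3 and Dazl had less signal with Oct4-EGFP than with EGFP alone, and Dazl also with Nr5a2-EGFP than with EGFP. Hormad1 read lower in the Nr5a2-EGFP clone than in both others. Ddx4, Mael and Nanos3 read within 2-fold in every comparison, as did the dim Sycp1. Prdm1 did so in Oct4-EGFP over EGFP, but saturation in the Nr5a2-EGFP clone makes its direct ratios bounds. In the sentences that follow, signals are the scanner software's processed intensities, and log2 ratios come from the background-corrected and loess-normalized spots, so that they differ slightly from the ratio of the printed signals.

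**Figure D1:**
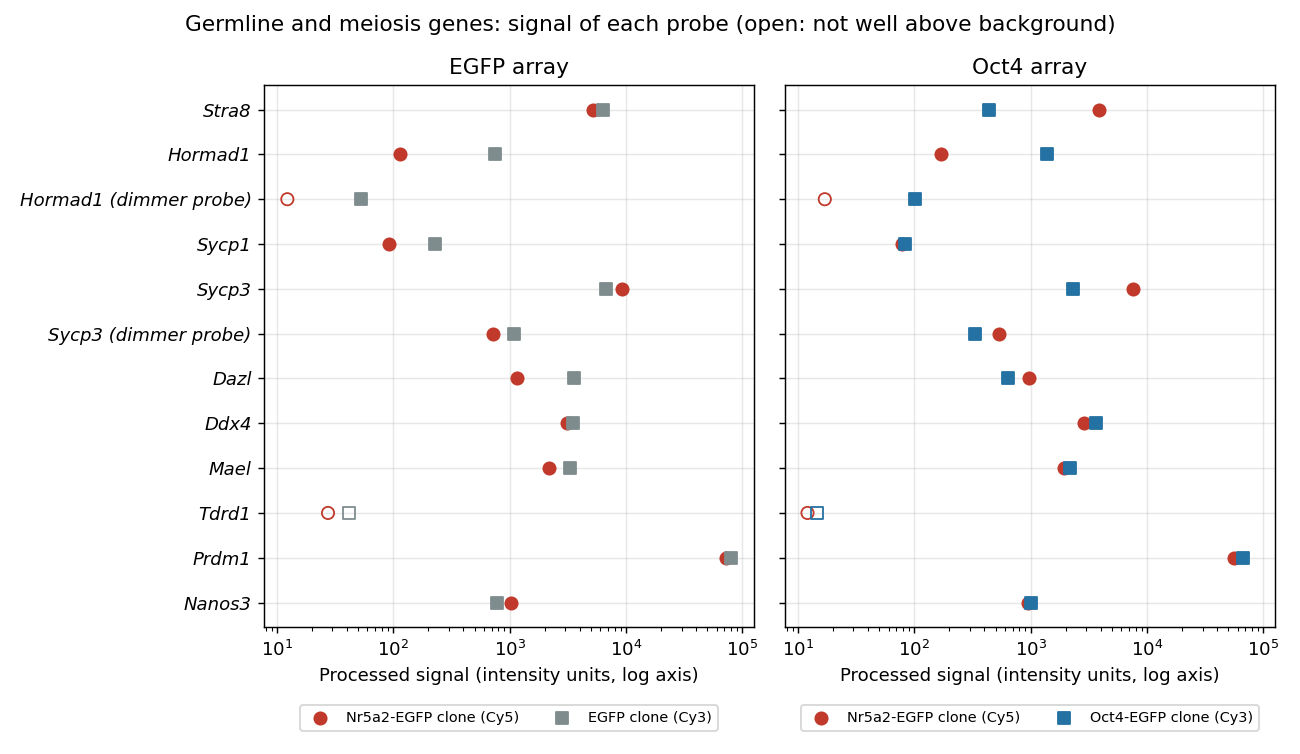
Processed signal of each probe of the 10 genes (x axis, intensity units, log scale) in the Nr5a2-EGFP clone (circles) and the clone it shared an array with (squares), 1 value per channel. Stra8 stood at 3829 in the Nr5a2-EGFP clone and 438 in the Oct4-EGFP clone, while the brighter Hormad1 probe stood at 169 and 1390. Open symbols mark channels not well above background, as for Tdrd1.

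Stra8 differed most in the comparisons with the Oct4-EGFP clone, although with the other Nr5a2-EGFP reading Stra8 (3.06) and Hormad1 (-3.06) were equal in size over Oct4-EGFP. Its product, named for its induction by retinoic acid, is a regulator of meiotic entry. The probe (NM_009292, mm9 chromosome 6, 34889237 to 34889296, plus strand) lies at base 1349 of its transcript. On the EGFP array its signal was 5203 in the Nr5a2-EGFP clone, against 6293 in the EGFP clone. On the Oct4 array it was 3829 in the Nr5a2-EGFP clone, against 438 in the Oct4-EGFP clone. Both readings of the Nr5a2-EGFP clone and that of the EGFP clone were thus high, and the Oct4-EGFP clone stood apart as low. The log2 ratio of the Nr5a2-EGFP clone was -0.28 over the EGFP clone and 2.82 (7.04-fold) over the Oct4-EGFP clone, where 30 of 26095 genes had a higher ratio. In the indirect comparison, which subtracts the Oct4 array's log2 ratio from the EGFP array's, the Oct4-EGFP clone read -3.09 (8.54-fold lower) against the EGFP clone, and 38 of 26340 genes had a lower ratio. The Cy3 levels alone gave -3.34.

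Dazl, an RNA-binding protein that licenses germ cells for gametogenesis, was highest in the EGFP clone. Its probe (NM_010021) lies on mm9 chromosome 17 at 50418923 to 50418982, minus strand. Its signal was 1166 in the Nr5a2-EGFP clone against 3593 in the EGFP clone, and 976 in the Nr5a2-EGFP clone against 644 in the Oct4-EGFP clone. The order was therefore EGFP, Nr5a2-EGFP and Oct4-EGFP, of which the last 2 differed by less than 2-fold. The log2 ratios were -1.61 (3.06-fold lower) for Nr5a2-EGFP over EGFP, 0.47 for Nr5a2-EGFP over Oct4-EGFP, and -2.09 (4.25-fold lower) for Oct4-EGFP over EGFP. Between the Nr5a2-EGFP readings the difference was -0.10.

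Sycp3, which encodes a protein of the chromosome axis and the lateral element of the synaptonemal complex, had its lowest signal in the Oct4-EGFP clone with both probes. The brighter probe (NM_011517, mm9 chromosome 10, 87935675 to 87935734) read 9169 in the Nr5a2-EGFP clone against 6735 in the EGFP clone. On the Oct4 array it read 7525 in the Nr5a2-EGFP clone against 2309 in the Oct4-EGFP clone. Its log2 ratios were 0.39 for Nr5a2-EGFP over EGFP, 1.61 (3.05-fold) for Nr5a2-EGFP over Oct4-EGFP and -1.22 for Oct4-EGFP over EGFP. The dimmer probe, designed on the messenger RNA Y08485 and spanning 87932348 to 87935438, read 716 against 1098 and 534 against 335 in the same order of channels. Its log2 ratios were -0.61, 0.49 and -1.11. The probes differed in sign over EGFP and both passed 2-fold in Oct4-EGFP over EGFP. Among all genes with several measured probes, 15.1% had probes at least 1 log2 unit apart over EGFP, 16.9% over Oct4-EGFP and 20.8% in the indirect comparison.

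Sycp1 builds the transverse filaments that join the axes. Its probe (NM_011516, mm9 chromosome 3, 102622573 to 102622632, minus strand) was dim, with 92.2 in the Nr5a2-EGFP clone against 229 in the EGFP clone, and 77.9 in the Nr5a2-EGFP clone against 83.0 in the Oct4-EGFP clone. The EGFP clone was the highest and the other channels lay close together. The log2 ratio was -0.80 for Nr5a2-EGFP over EGFP, or -1.31 from the processed signals, which add no constant before taking the log. It was -0.77 for Oct4-EGFP over EGFP, or -1.22 from the processed signals. Whether Sycp1 passed 2-fold in these comparisons depended on that choice.

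In the comparisons with the Oct4-EGFP clone, Hormad1 ran the other way from Stra8. Its product, a HORMA-domain protein, coats unsynapsed meiotic chromosome axes. Both of its probes (NM_026489) were designed on neighbouring stretches of mm9 chromosome 3, and they share 20 bases, shown in capitals in the last 30 bases of the brighter and the first 30 of the dimmer probe, because they are not independent measurements.
Hormad1, brighter probe (from 95389076 to 95389135): gaagagaagtCTTCGTCAATTTAGGAAAAC
Hormad1, dimmer probe (from 95389116 to 95389495): CTTCGTCAATTTAGGAAAACaataaatgca
The brighter probe read 114 in the Nr5a2-EGFP clone against 747 in the EGFP clone, and 169 in the Nr5a2-EGFP clone against 1390 in the Oct4-EGFP clone. The dimmer probe read 12.3 against 52.7 and 17.0 against 101, and was not well above background in either reading of the Nr5a2-EGFP clone. With both probes the Nr5a2-EGFP clone was the lowest on each array. The brighter probe had log2 ratios of -2.06 (4.16-fold lower) over EGFP and -2.69 (6.43-fold lower) over Oct4-EGFP, or -2.71 and -3.04 from the processed signals. Of 26095 genes, 94 had a lower ratio over Oct4-EGFP. The dimmer probe gives only bounds, at least 1.16-fold lower over EGFP and at least 1.66-fold lower over Oct4-EGFP. The Oct4-EGFP clone read above the EGFP clone by a log2 ratio of 0.63 with the brighter probe and 0.68 with the dimmer, within 2-fold. For the brighter probe this was 0.31 in the deposited value table and 1.00 from the Cy3 levels. For the dimmer probe it was 0.43 and 0.51 in the same order. Its indirect ratio draws on Nr5a2-EGFP readings that were not well above background.

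The germ granule genes differed little. Ddx4, the mouse homologue of the Drosophila helicase Vasa (NM_010029, mm9 chromosome 13, 113388616 to 113388675), read 3110 in the Nr5a2-EGFP clone against 3500 in the EGFP clone, and 2896 in the Nr5a2-EGFP clone against 3658 in the Oct4-EGFP clone. Its log2 ratios were -0.19 over EGFP, -0.35 over Oct4-EGFP and 0.16 for Oct4-EGFP over EGFP. Mael (NM_175296, mm9 chromosome 1, 168131583 to 168131642), which acts in transposon silencing, read 2171 in the Nr5a2-EGFP clone against 3306 in the EGFP clone and 1913 against 2173 in the Oct4-EGFP clone. Its log2 ratios were -0.60, -0.22 and -0.38. Ddx4 and Mael were thus well above background in every clone, whichever transgene it carried. Tdrd1, a Tudor-domain scaffold of germ granules (NM_031387, mm9 chromosome 19, 56940470 to 56940951), read 27.5 in the Nr5a2-EGFP clone against 41.9 in the EGFP clone, and 12.1 against 14.6 in the Oct4-EGFP clone. None of these was well above background, so no fold is given.

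Of the genes of germ cell specification and survival, Nanos3 (NM_194059, mm9 chromosome 8, 86697632 to 86697691) read 1033 in the Nr5a2-EGFP clone against 780 in the EGFP clone, and 948 in the Nr5a2-EGFP clone against 1004 in the Oct4-EGFP clone. Its log2 ratios were 0.30, -0.15 and 0.46. Prdm1 (NM_007548, mm9 chromosome 10, 44157089 to 44157148), which encodes the repressor Blimp1 and also acts in trophoblast and B cells, was the brightest member probe. It read 71703 in the Nr5a2-EGFP clone, where it was saturated, against 80255 in the EGFP clone, and 55303, again saturated, against 66324 in the Oct4-EGFP clone. The Cy3 channels were not saturated, and their levels gave a log2 ratio of 0.00 for Oct4-EGFP over EGFP. The indirect log2 ratio, 0.04, also draws on the saturated Cy5 readings. Saturation makes both direct ratios bounds, at least 1.07-fold higher over EGFP and at least 1.04-fold higher over Oct4-EGFP. The processed signals, without loess, had the other sign, with log2 ratios of -0.16 and -0.26, so no direction is given for Prdm1 in the direct comparisons.

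The Prdm1 probe is shown because its make-up sets it apart from the other member probes. Of its 60 bases, 28 are T, and 1.5% of the 39429 probes hold as large a share of T. It starts at base 4975 of the transcript, and its first 30 bases are:
Prdm1, probe, minus strand: gttggttggtttgtttgtttgttttttcct
Whether this signal comes from Prdm1 RNA alone was not tested. Neither its level nor its ratios between clones are therefore assigned to Prdm1 RNA alone.

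**Figure D2:**
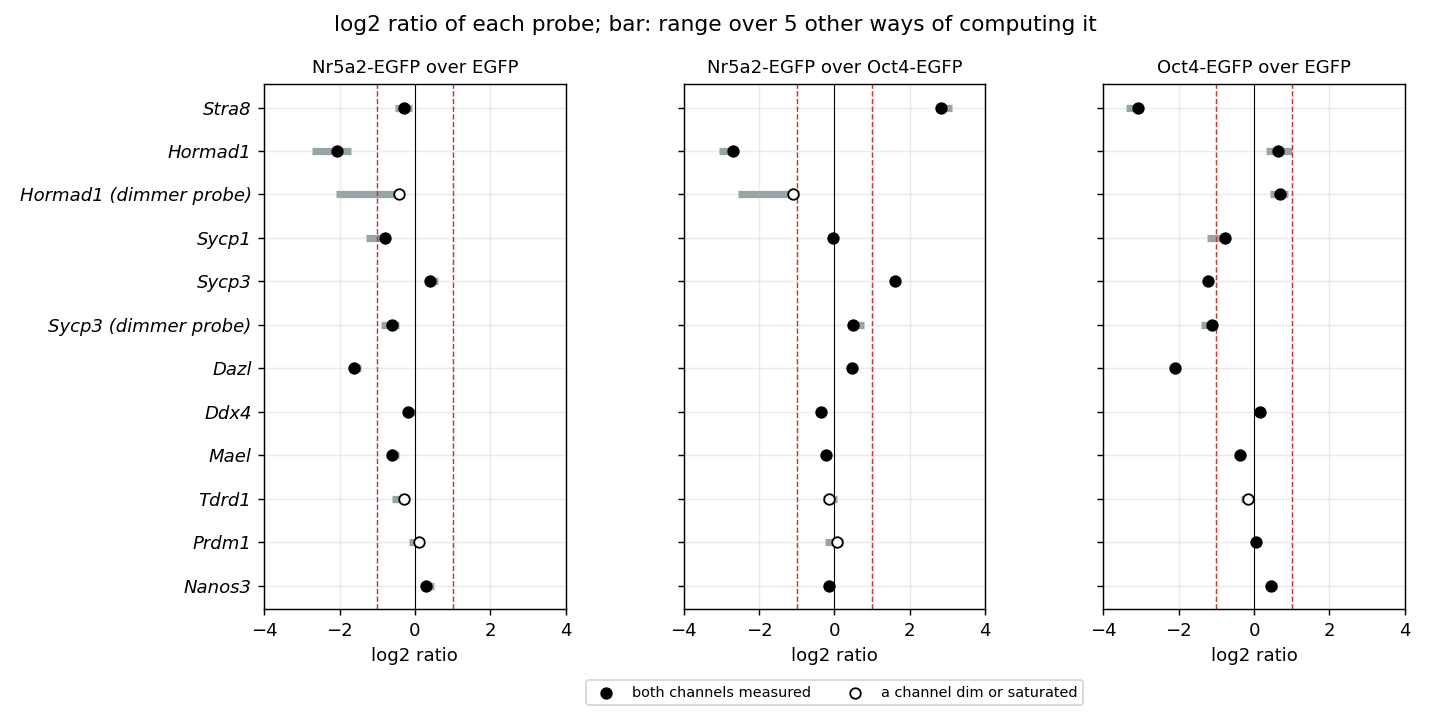
The log2 ratio of each probe (points) in the 3 comparisons, with dashed lines at 1 and -1. Grey bars span 5 other ways of computing it: median centring, processed signals, a smaller offset, the deposited value table, and the other reading of the Nr5a2-EGFP clone or the Cy3 levels. Stra8 lies at 2.82 over Oct4-EGFP and at -3.09 in Oct4-EGFP over EGFP, Hormad1 at -2.06 and -2.69 in the direct comparisons.

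Counted over the 9 measured genes, with the brighter probe for genes with 2, the Nr5a2-EGFP clone had 0 genes at least 2-fold higher and 2 lower (Hormad1 and Dazl) than the EGFP clone. Among 25998 genes in all, 8.41% passed 2-fold, 3.34% higher and 5.07% lower. Against the Oct4-EGFP clone, 2 were higher (Stra8 and Sycp3) and 1 lower (Hormad1), where 11.7% of 26095 genes passed 2-fold, 4.54% higher and 7.11% lower. In Oct4-EGFP over EGFP, 0 were higher and 3 lower (Stra8, Dazl and Sycp3), where 12.3% of 26340 genes passed 2-fold, 6.48% higher and 5.85% lower. The median log2 ratios of the 9 genes were -0.28, -0.03 and -0.38, beside 0.03, 0.01 and 0.02 over all genes. Over EGFP the median of the 9 genes was -0.08 with median centring and -0.52 with the other Nr5a2-EGFP reading. The comparisons share their samples pairwise, so the counts are not independent of each other. Prdm1 was counted as within 2-fold, although saturation makes its direct ratios bounds.

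**Figure D3:**
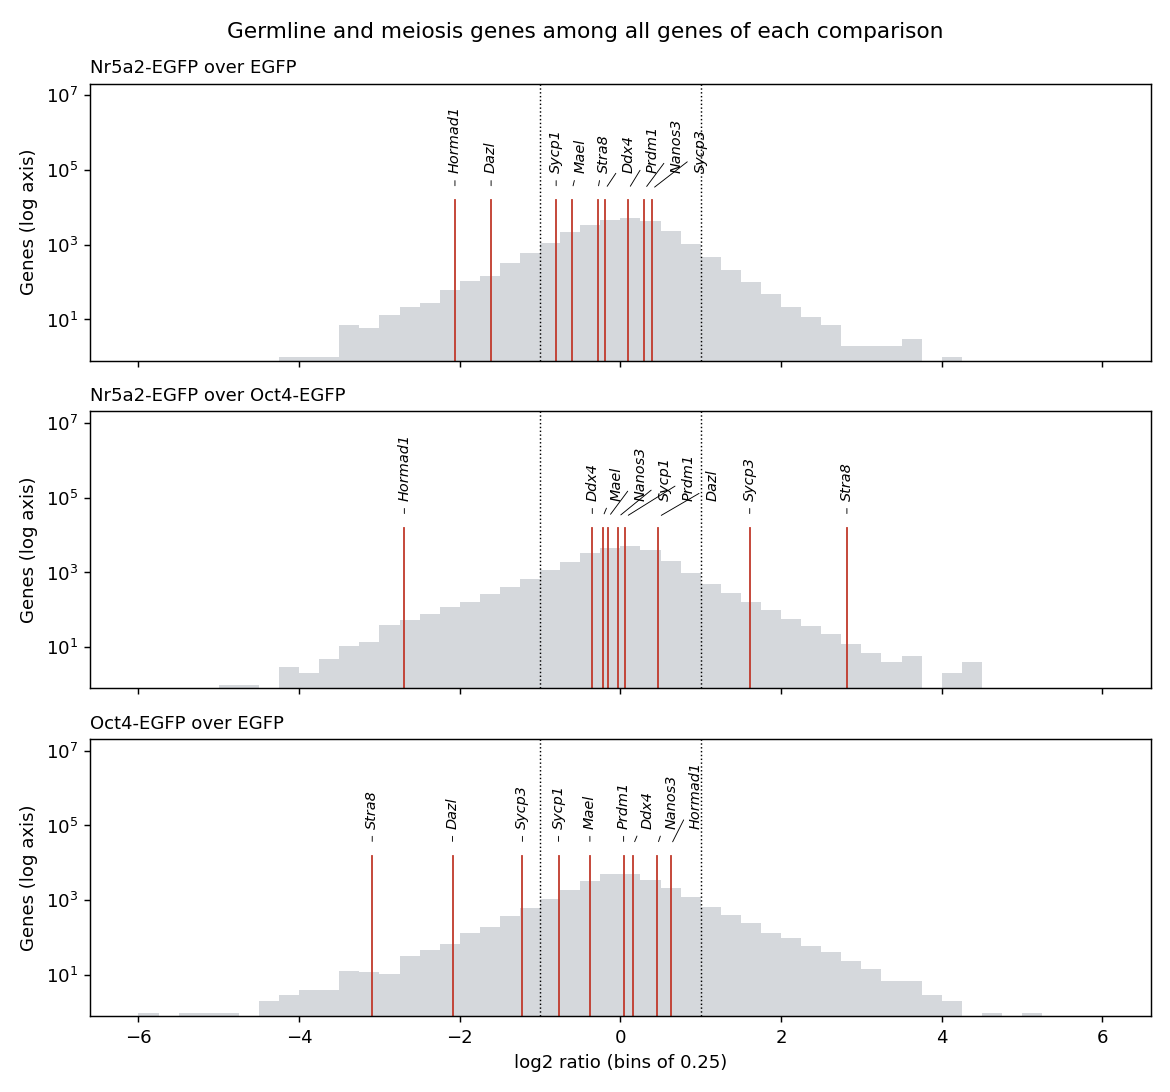
Number of genes (y axis, log scale) by log2 ratio (x axis, bins of 0.25) in each comparison, with a red line for each of the 9 measured genes and dotted lines at 1 and -1. Hormad1 lies in the low tail of both direct comparisons, and Stra8 in the high tail over Oct4-EGFP and the low tail of Oct4-EGFP over EGFP.

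The other genes of meiosis were described from lists of textbook members. Of 15 measured genes of the synaptonemal complex and the meiotic axis, 0 were higher and 3 lower in the Nr5a2-EGFP clone than in the EGFP clone (12 of the 15 are not among the 10 genes, and of these 0 were higher and 2 lower). The lower ones beside Hormad1 were the cohesin genes Smc1b (-1.26) and Stag3 (-1.11). In Oct4-EGFP over EGFP, 1 was higher and 4 lower: Stag3 (-1.77), Rec8 (-1.28), Sycp3 and Smc1b (-1.08) were lower, and Hormad2 (1.17), the paralogue of Hormad1, was higher. Rec8, the meiotic cohesin kleisin, read 17190 in the Nr5a2-EGFP clone against 19320 in the EGFP clone, and 14782 against 6626 in the Oct4-EGFP clone. Its order of channels, with the Oct4-EGFP clone low, was that of Stra8, with a smaller difference. Hormad2 had -1.11 in Nr5a2-EGFP over Oct4-EGFP. Stag3 had Nr5a2-EGFP readings 0.72 apart, and was at -0.39 over EGFP with the other reading.

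Of the meiotic entry genes, 10 were measured over EGFP and 9 in the other comparisons. Over EGFP, 0 were higher and 1 lower, Meioc (-1.20), which keeps meiotic transcripts in order together with Ythdc2. Over Oct4-EGFP, 2 were higher (Stra8 and Rec8, 1.16) and 1 lower, Rbm46 (-1.02). In Oct4-EGFP over EGFP, 0 were higher and 2 lower, again Stra8 and Rec8. Of 22 meiotic recombination genes, 1 was higher and 1 lower over EGFP, 2 higher and 1 lower over Oct4-EGFP, and 1 higher and 2 lower in Oct4-EGFP over EGFP. Iho1, a factor for the double-strand breaks of meiosis, had 1.28 over Oct4-EGFP and -1.63 in Oct4-EGFP over EGFP. Psmc3ip, a partner of the meiotic recombinases, had -1.14 over EGFP, where 4930432K21Rik was the higher one (1.76), with 6852 in the Nr5a2-EGFP clone against 1892 in the EGFP clone. Rec114 had 1.13 in Oct4-EGFP over EGFP. Spo11, which makes the meiotic breaks, was well above background in none of the channels.

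Of the piRNA pathway and germ granule list, 22 genes were measured over EGFP, of which 0 were higher and 2 lower, Mov10l1 (-1.20) and Henmt1 (-1.09). Over Oct4-EGFP, 0 were higher and 3 lower of 21: the Tudor gene Tdrd12 (-1.51), the mitochondrial phospholipase gene Pld6 (-1.17) and Piwil2 (-1.04), which encodes a Piwi protein. In Oct4-EGFP over EGFP, 1 was higher, Tdrd12 (1.32), and 1 lower of 22. The lower one, Henmt1, was not well above background in the Oct4-EGFP clone, with 36.6 against 252 in the EGFP clone, and no fold is given. Among germ cell RNA-binding genes beside Dazl, Nanos1 (-1.76) and Elavl2 (-1.75, other probe -1.37, and -0.86 with the other Nr5a2-EGFP reading) were lower over EGFP, and 0 of 14 were higher. Cpeb1, a regulator of translation in oocytes, had 1.51 in Oct4-EGFP over EGFP.

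A wider list of germline genes that somatic cells keep methylated had 32 measured genes over EGFP, 1 higher and 9 lower in the Nr5a2-EGFP clone, with a median of -0.66. Without the 10 genes, 1 of 25 was higher and 7 were lower. The lower ones were Tuba3b (-2.48), Tuba3a, Ctcfl (-1.76), Smc1b, Majin (-1.21), Mov10l1 and Meioc beside Hormad1 and Dazl; those outside the 3 lowest were named after their values were seen unless another list names them. Tuba3a, saturated in the EGFP clone, was at least 4.04-fold lower. Tuba3a and Tuba3b are near-identical copies whose probes may share signal, and for Tuba3b the second Nr5a2-EGFP reading minus the first was -1.62. Ctcfl, a testis paralogue of the insulator protein CTCF, read 1706 in the Nr5a2-EGFP clone against 5863 in the EGFP clone, and 1281 against 2854 in the Oct4-EGFP clone. Over Oct4-EGFP the list had 3 higher and 6 lower of 31 (median -0.24), and in Oct4-EGFP over EGFP 1 higher and 7 lower of 32 (median -0.36).

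**Figure D4:**
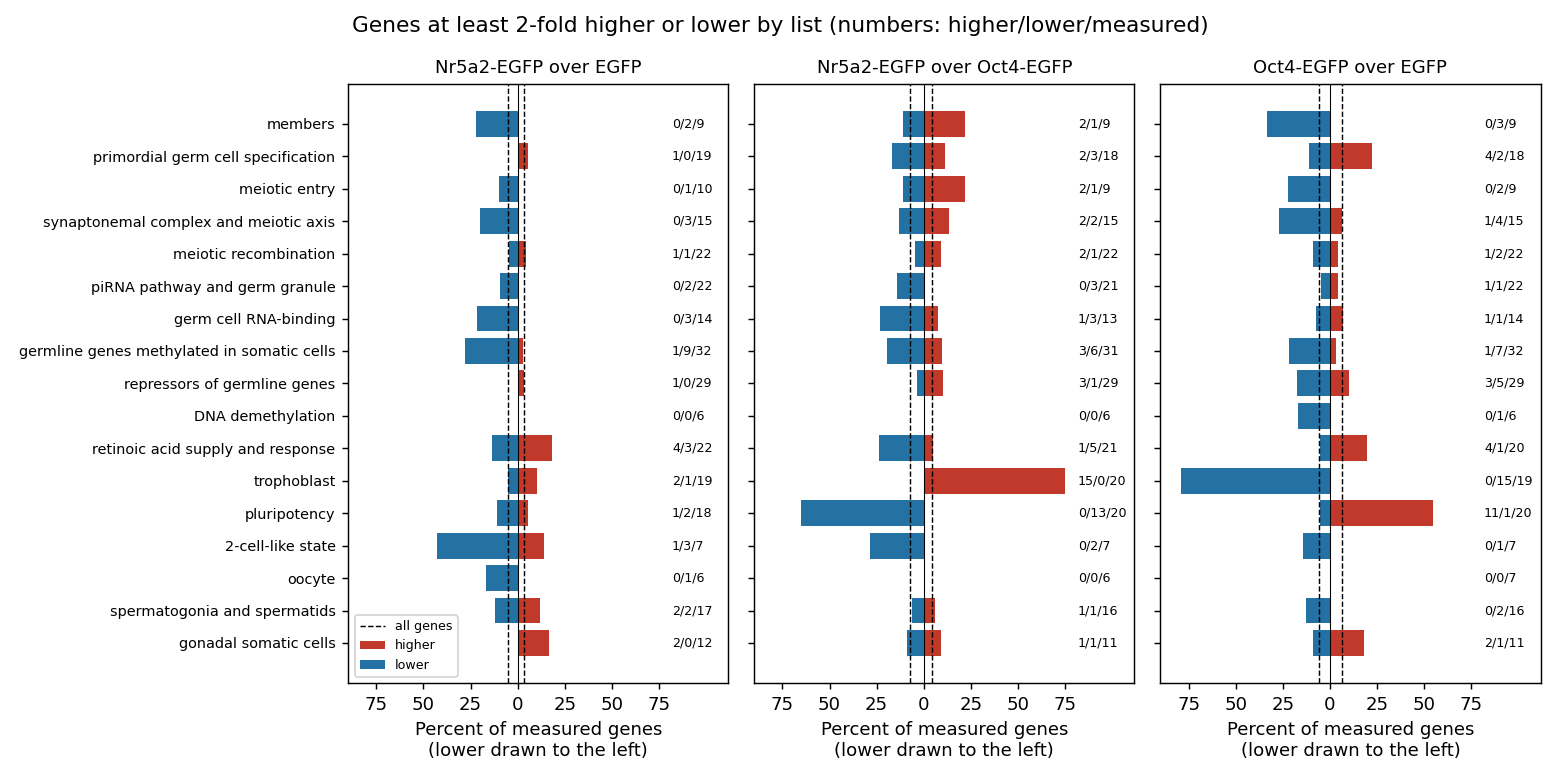
Percent of the measured genes of each list that were at least 2-fold higher (right, red) or lower (left, blue) in each comparison, with the counts higher/lower/measured. Dashed lines mark the same percent of all genes, 3.34 higher and 5.07 lower over EGFP. Over Oct4-EGFP, 15 of 20 trophoblast genes were higher, while of the germline genes methylated in somatic cells 3 of 31 were higher and 6 lower.

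The signals upstream of these genes were also read. Of 22 retinoic acid genes measured over EGFP, 4 were higher and 3 lower in the Nr5a2-EGFP clone: the receptor gene Rarb (1.65, other probe 0.12), itself a retinoic acid target, and Nrip1 (1.84, other probe 0.19) were the highest measured in both channels, and Aldh1a2 (-1.32) and Rbp4 (-1.29) the lowest. Cyp26a1, which degrades retinoic acid, was too dim to measure in the EGFP clone, and Nr5a2-EGFP over EGFP was at least 2.19-fold. Over Oct4-EGFP, 1 was higher (Rarb, 1.18, other probe 0.25) and 5 lower of 21, the lowest being Rbp4 (-2.04), Rxra (-1.61, other probe -0.44) and Crabp1 (-1.25). Rarg, the receptor gene of ES cells and spermatogonia, had -0.35 over EGFP, -1.14 over Oct4-EGFP and 0.80 in Oct4-EGFP over EGFP. Over Oct4-EGFP, Stra8 thus ran opposite to Rarg and the same way as Rarb. In Oct4-EGFP over EGFP, where Stra8 was lower, Rarg and Rarb (0.47, other probe -0.13) were within 2-fold. What part these genes had in the Stra8 difference was not tested.

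Of 29 repressors of germline genes, 1 was higher and 0 lower over EGFP (Kdm5c, 1.02, other probe 1.16), a histone demethylase of germline promoters. Over Oct4-EGFP, 3 were higher, the methyltransferase gene Dnmt3a (1.25), its cofactor gene Dnmt3l (1.79) and Kdm1a (1.17, and 0.61 with the other Nr5a2-EGFP reading), and 1 was lower, Hdac2 (-1.13). In Oct4-EGFP over EGFP, 3 were higher, Kdm5c (1.33, other probe 1.41), Wdr5 (1.29) and Hdac2 (1.06). The 5 lower ones were Kdm1a (-1.78, and -1.23 from the Cy3 levels), Dnmt3a (-1.76), E2f6, Dnmt3l (-1.30) and Dnmt3b. Of the complex named above, E2f6 had -1.37 in Oct4-EGFP over EGFP, with signals of 920 in the Oct4-EGFP clone against 3080 in the EGFP clone. Max had -0.97 over EGFP, -0.25 over Oct4-EGFP and -0.72 in Oct4-EGFP over EGFP. Mga had 0.36, -0.54 and 0.90, and Pcgf6 0.69, 0.30 and 0.38. L3mbtl2 had -0.07, 0.10 and -0.18. The maintenance methyltransferase gene Dnmt1 had 0.19, 0.27 and -0.08, and Dnmt3b -0.80, 0.25 and -1.05, with other probes between -0.93 and -0.54 in the last.

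Of the factors of primordial germ cell specification beside Prdm1 and Nanos3, Prdm14 had a log2 ratio of -2.20 over Oct4-EGFP, with Nr5a2-EGFP readings 1.34 apart. Tfap2c, which specifies both germ cells and trophoblast, had 0.24 over EGFP, 1.35 over Oct4-EGFP and -1.11 in Oct4-EGFP over EGFP. Dppa3 had -0.16, 0.69 and -0.85. Tcl1, a coactivator of AKT signalling, had 2.14 in Oct4-EGFP over EGFP, and Ifitm3, a surface protein of early germ cells, 1.20. Of this list, 1 was higher and 0 lower of 19 over EGFP, 2 and 3 of 18 over Oct4-EGFP, and 4 and 2 of 18 in Oct4-EGFP over EGFP.

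Markers of other cell types also differed between the clones. Of 20 measured trophoblast markers, 15 were higher and 0 lower in Nr5a2-EGFP over Oct4-EGFP, and 0 were higher and 15 lower of 19 in Oct4-EGFP over EGFP. Summed signals are given without genes saturated in any channel, a choice made after seeing the data, since such genes carried much of the sums. Over 21 trophoblast genes, without Gcm1, the sum was 259870 in the Nr5a2-EGFP clone against 252551 in the EGFP clone, and 207207 in the Nr5a2-EGFP clone against 44064 in the Oct4-EGFP clone. Elf5 and Tpbpa were well above background in none of the channels. The order of Stra8 and Rec8 over the channels was that of Cdx2, with 17262 against 22103 and 15209 against 583. Pluripotency markers went the other way, 0 higher and 13 lower of 20 over Oct4-EGFP. Over the 15 that were not saturated, the sum was 63644 in the Nr5a2-EGFP clone against 64347 in the EGFP clone, and 54979 in the Nr5a2-EGFP clone against 191202 in the Oct4-EGFP clone. Esrrb, a pluripotency gene, had -2.30 over EGFP, -3.72 over Oct4-EGFP and 1.42 in Oct4-EGFP over EGFP, but its Nr5a2-EGFP readings were 1.45 apart, and the other reading or the Cy3 levels gave -0.85, -5.17 and 2.87. Zbtb16, a marker of spermatogonial stem cells, had 0.77, 0.40 and 0.38. The part of either marker list in the differences of the 10 genes was not tested.

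Of 15 oocyte genes, 8 were well above background in none of the channels, among them Zp1, Zp2, Bmp15, Figla, Nobox and Lhx8, and of 21 genes of spermatogonia and spermatids, 4 (Gfra1, Tnp2, Prm1 and Acrv1). Of the oocyte genes measured, 1 of 6 was lower over EGFP, Nlrp5 (-1.70), and 0 were at least 2-fold apart in the other comparisons. Of the spermatogonial and spermatid genes, 2 of 17 were higher over EGFP, Uchl1 (1.37) and Prm2 (1.08), and 2 lower. Of 16 gonadal somatic genes, 4 were above background in none, and Star (1.16) and Dhh (2.04) were at least 2-fold higher over EGFP. Over Oct4-EGFP, 1 of 11 gonadal somatic genes was higher and 1 lower. The summed signal of the oocyte genes was 10924 in the Nr5a2-EGFP clone against 12546 in the EGFP clone, and 9212 against 8300 in the Oct4-EGFP clone. That of the spermatogonial and spermatid genes, without Tuba3a, was 55874 against 47565 and 50062 against 54578 in the same order of channels. That of the gonadal somatic genes, without Foxl2, was 41211 against 28352 and 45659 against 89614. Of these sums, Inhbb alone held 18598 against 13968 and 25324 against 68627. With the saturated genes, the sums of the last 2 lists were lower in the Nr5a2-EGFP clone than in the EGFP clone, 79208 against 154518 and 101872 against 127564. Their part in the results was not tested.

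Set against EGFP alone, Stra8, Dazl and Sycp3 were at least 2-fold lower with Oct4-EGFP, and Hormad1 and Dazl with Nr5a2-EGFP. Dazl was thus low with either transgene. The promoters of these 4 genes are shown. They are the 250 bases before the transcript start from RefSeq (GRCm38.p6), first listed start of each gene, with capitals for every match on either strand to CACGTG (the palindromic E-box that Max and Mga can bind), TCCCGC (an E2F6 element) or AGGTCA (a nuclear receptor half-site).
Stra8 (chr6:34920698-34920947, plus strand): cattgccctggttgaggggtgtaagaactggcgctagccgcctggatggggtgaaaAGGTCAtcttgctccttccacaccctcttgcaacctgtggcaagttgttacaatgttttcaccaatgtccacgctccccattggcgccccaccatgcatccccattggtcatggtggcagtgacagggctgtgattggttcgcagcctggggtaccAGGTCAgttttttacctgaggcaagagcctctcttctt
Dazl (chr17:50293621-50293870, minus strand): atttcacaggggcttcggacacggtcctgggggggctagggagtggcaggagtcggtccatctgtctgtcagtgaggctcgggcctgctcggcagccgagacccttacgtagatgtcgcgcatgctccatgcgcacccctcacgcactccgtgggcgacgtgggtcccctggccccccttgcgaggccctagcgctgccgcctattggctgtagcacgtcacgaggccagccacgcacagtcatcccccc
Sycp3 (chr10:88459337-88459586, plus strand): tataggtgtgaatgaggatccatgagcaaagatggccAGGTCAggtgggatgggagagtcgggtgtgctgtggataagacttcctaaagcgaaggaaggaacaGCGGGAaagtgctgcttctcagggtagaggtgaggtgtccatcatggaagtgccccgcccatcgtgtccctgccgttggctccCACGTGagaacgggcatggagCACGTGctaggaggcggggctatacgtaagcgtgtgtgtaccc
Hormad1 (chr3:95559427-95559676, plus strand): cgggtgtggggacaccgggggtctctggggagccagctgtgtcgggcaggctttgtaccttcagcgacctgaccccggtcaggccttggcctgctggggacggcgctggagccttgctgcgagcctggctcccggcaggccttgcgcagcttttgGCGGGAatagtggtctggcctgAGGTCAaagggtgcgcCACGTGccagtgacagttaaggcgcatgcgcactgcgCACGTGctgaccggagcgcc
All 10 genes had at least 1 entry, 13 windows in all. CACGTG was present in the windows of 6 genes, Hormad1, Sycp1, Sycp3, Ddx4, Mael and Tdrd1. It was in 8 of the 13 windows, while 6.02% of 32851 windows of all genes held it. The Hormad1 windows overlap, as do the Tdrd1 windows that held it, so counts of windows take the same matches more than once. Hormad1 and Sycp3 each held it at 2 places within 64 bases of the start. TCCCGC was found for 4 genes (Hormad1, Sycp3, Ddx4 and Mael), in 5 of the 13 windows, and in 16.9% of all windows. CACGTG and TCCCGC each contain a CpG, and the windows of all genes were not matched for CpG content. AGGTCA was found for Stra8 (2 places, plus strand), Hormad1 and Sycp3, in 4 of the 13 windows, and in 14% of all windows. It can lie inside CAAGGNCA, the Nr5a2 element, for which 0 of 10 genes had a match and 5.53% of all windows did. The octamer ATGCAAAT that Oct4 can bind also had 0 of 10, and 1.6% of all windows. These are matches of letters, not sites of binding.

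**Figure D5:**
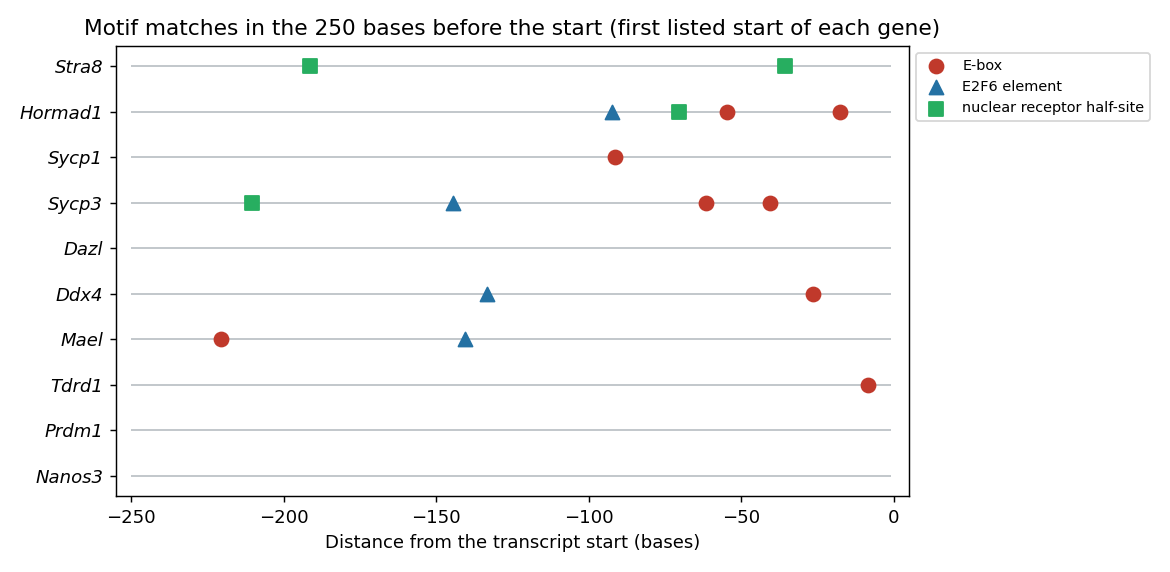
Position of motif matches (x axis, bases from the transcript start) in the window of the first listed start of each of the 10 genes. The E-box is found for 6 genes, with 2 matches each for Hormad1 and Sycp3, and Stra8 holds only nuclear receptor half-sites.

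CpG content also varied among the 10 genes. Dazl held 20 CpG dinucleotides in its 250 bases, more than 82.1% of all windows, Ddx4 31 (94.8%) and Hormad1 19 (80.3%). Sycp3 held 12, Stra8 5 and Nanos3 3, where the median of all windows was 6. Mael held 18, Sycp1 17 and Prdm1 15, and the Tdrd1 windows held 11, 22 and 3. Whether CpG content goes with the differences between clones was not tested.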

How the data were processed

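Oligo-dT primed cDNA from 10 µg of total RNA per channel was hybridised, per the labels' protocols, on Agilent arrays of design 026655 (coordinates on mm9). The deposited spot files hold intensity values from the scanner. Agilent Feature Extraction 10.7.3.1 is named per the file headers. Version 9.3.2.1 stands in the submitters' processing notes. The processed intensity was, per the file headers, background-subtracted, detrended and dye-normalized. The deposited files also hold the log10 ratio of Cy5 over Cy3 and other flags for each spot. In the authors' value table the deposited log2 ratios had medians of 0.02 for the EGFP array and 0.04 for the Oct4 array, and correlated with the scanner's log ratio at r = 0.997 for each; its centring is unknown.

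From the mean signal and local background, limma 3.58.1 (R 4.3.3) made ratios by normexp correction (offset 50), then loess array by array, without control spots and outlier spots (530 on the EGFP array and 523 on the Oct4 array), and channel levels by Aquantile. Repeated spots were averaged. Gene names are those in the files, updated by RefSeq accession (66.1% of probes matched). For a gene with several probes the brightest stood for it, and it was measured if well above background in at least 1 of the channels compared. Where a channel was dim or saturated, the ratio is a bound, at least N-fold, for dim channels set against whichever is higher, the dim level or the lowest signal counted as above background. Direct ratios are open to dye bias. Genes were named by a rule: all probes of the 10 genes, up to the 3 highest and 3 lowest past 2-fold of each of 17 other lists, and 19 fixed genes. Of the fixed genes, Nr5a2 is given without a value. The 10 genes and the lists were chosen with earlier results of these data known. Of these steps, the normexp correction and loess were tested on a simulated array.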

Additional observations from a re-analysis of the deposited data

How the results depend on the processing

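No paired analysis was possible because the 2 arrays hold no replicates and carry no replicate numbers. Each of the 9 measured genes was recomputed in each comparison with median centring in place of loess, the processed signals, an offset of 10, the deposited value table, the mean over probes, no background filter, both channels above background, and the other reading of the Nr5a2-EGFP clone or the Cy3 levels; for single genes, the last 2 were chosen after seeing the data. The filters cannot change a gene's own ratio, nor the mean over probes that of a gene with 1 probe. Of the other 141 values, 119 moved by less than the 0.30 SD between readings, 22 moved by more, and 0 that had passed 2-fold changed sign. With a size rule of 1.5-fold, 4 genes were lower in Nr5a2-EGFP over EGFP and 1 higher in Oct4-EGFP over EGFP, where 14.2% and 15.9% of all genes passed in those directions. Sycp1 passed 2-fold only where its dim signals were less damped: over EGFP it was -1.31 from the processed signals and -1.04 with the smaller offset. As the mean over probes, Hormad1 was -1.24 over EGFP and -1.90 over Oct4-EGFP, and Sycp3 1.05 over Oct4-EGFP. Median centring moved the median of all genes over EGFP to 0.16, and higher genes then made up 63.5% of calls in place of 39.8%; Hormad1 was -1.89 and Dazl -1.43 there. Among other genes named, median centring ended the calls of Meioc (-0.99), Psmc3ip (-0.95) and Stag3 (-0.87) over EGFP. It also ended those of Rbm46 (-0.96), Piwil2 (-0.98) and Pld6 (-0.93) over Oct4-EGFP, and of Smc1b (-0.94) and Hdac2 (0.93) in Oct4-EGFP over EGFP. The other Nr5a2-EGFP reading ended those of Majin (-0.94) and Star (0.91) over EGFP and Rbm46 (-0.89) over Oct4-EGFP. The number of arrays, and for Sycp1 and Tdrd1 the low signal, limit the precision.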

Other observations

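Genes of the 2-cell-like state, which some ES cells enter for a time, had 1 gene higher and 3 lower of 7 in Nr5a2-EGFP over EGFP. Zscan4c read 921 in the Nr5a2-EGFP clone against 11448 in the EGFP clone, and 531 in the Nr5a2-EGFP clone against 4358 in the Oct4-EGFP clone. Its log2 ratios were -3.54 over EGFP, where its other probes had -3.48 and -0.38, and -2.93 over Oct4-EGFP. Zscan4 genes are near-identical copies whose probes may share signal. Zfp352 was the higher one, with 1.07 over EGFP. Over Oct4-EGFP, 0 were higher and 2 lower of 7, and in Oct4-EGFP over EGFP 0 and 1. Of 6 DNA demethylation genes, 0 passed 2-fold in the direct comparisons and 1, Tdg (-1.25, other probes -0.24 and 0.75), was lower in Oct4-EGFP over EGFP.

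Of 12 reference genes often used for scaling, 0 passed 2-fold over EGFP, and Actb (2.71-fold) and B2m (2.83-fold) were higher in Nr5a2-EGFP over Oct4-EGFP. Their log2 ratios in Oct4-EGFP over EGFP were -1.77 and -1.92. The Nr5a2-EGFP readings of Actb were 0.82 apart, and Actb had a log2 ratio of 0.61 over Oct4-EGFP with the other reading and -0.94 from the Cy3 levels.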
